A study of Mus musculus with 8 samples.

Results

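The antigen receptor loci are the 6 places in the mouse genome that encode the antibody chains of B cells and the antigen receptor chains of T cells. They were taken by position on mm9 as the heavy chain locus Igh at chr12:114400000-117300000, the light chain loci Igk at chr6:67400000-70700000 and Igl at chr16:18900000-19300000, and the T cell receptor loci Tcra/Tcrd at chr14:52900000-54900000, Tcrb at chr6:40700000-41600000 and Tcrg at chr13:19200000-19500000. Of the 170183 probes on the autosomes and X, 551 lay in these loci: 179 in Igh, 145 in Igk, 27 in Igl, 104 in Tcra/Tcrd, 73 in Tcrb and 23 in Tcrg.

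The samples form 1 group of liver tumors from 8 male FAH-/- mice, which lack the last enzyme of tyrosine breakdown. The mice received the drug NTBC, which blocks that pathway at an earlier step, in their drinking water at 7.5 mg/L and then at 2.5% of the normal dose, over 6 to 12 months. Tumor DNA carried the dye Cy5 and was hybridized to tiling arrays together with Cy3-labelled liver DNA pooled from 6 male FAH+/+ littermates, at 1.5 µg per labelling. The labels give neither the strain nor the age of the mice, no liver of a tumor mouse without tumor was analysed here, and the dyes were not swapped. The tumors are numbered 1 to 8 in the order of deposition, with tumors 1 to 4 on slide 1 and tumors 5 to 8 on slide 2.

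As background, each locus holds a row of variable (V), in some loci diversity (D), and joining (J) segments beside constant (C) genes. Developing B and T cells cut and join a V, D and J segment, which removes the DNA between them, while liver cells keep the whole row. The segments are families of related copies, and their number and sequence differ between inbred mouse strains. Under their RefSeq symbols (GRCm38.p6, used for names and order alone), Igh has 183 V, 20 D, 4 J and 8 C genes and runs from the constant gene Igha to a variable segment of the Ighv1 family. Igk runs from the variable segment Igkv2-137 to the constant gene Igkc, with 162 V segments. Tcra/Tcrd runs from Trav1 to Trac, with 136 V and 62 J segments. The deposited files name no genes, so each value below belongs to a position and not to a segment.

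Values are log2 ratios of tumor over reference signal. On this scale 0 means equal signal, and for 2 copies a loss of 1 in every cell would give -1 and a gain of 1 would give 0.58. Each locus was set against the 5 Mb on both sides, so that a gain or loss of the whole chromosome cancels. In DNA from a whole tumor, a change in few cells and a smaller change in all of them cannot be told apart. On each array 97.0% to 99.9% of spots stood well above background in both dyes, and no probe of the loci was saturated. Probe-to-probe noise was 0.62 to 0.65 in tumors 1 to 6 and 0.39 in tumors 7 and 8, since the arrays shared a pattern of high and low probes that was weaker in the last 2 (slopes 1.03 to 1.08 against 0.57 and 0.60). Where single tumors are compared, that pattern was scaled to each array and subtracted. The noise was then 0.12 to 0.21 over the arrays, and tumors 7 and 8 were no longer the least noisy. In the flanks of Tcra/Tcrd the SD over probes was then 0.28 in both, against 0.13 to 0.24 in tumors 1 to 6. The numbers of arrays and of probes both limit the precision. In single tumors the standard error over the probes of a locus, set against its flanks, was 0.031 to 0.067 at Igh. At Igk it was 0.037 to 0.056, at Tcrb 0.049 to 0.088 and at Tcra/Tcrd 0.097 to 0.11. At Igl it was 0.080 to 0.13 and at Tcrg 0.071 to 0.12. The p-values below rest on the spread between arrays and do not contain this error. Because all arrays used the same pool, no error given here contains variation among control mice.

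The first question was whether the loci as wholes differed from their flanks in all tumors. Every locus had a mean slightly above its flanks, and none was below. The T cell receptor loci Tcra/Tcrd and Tcrb had the highest means, 0.19 ± 0.029 and 0.16 ± 0.025 (SD, n = 8). With all probes included, the means of windows of the same length elsewhere had a 95th percentile of 0.11 for Tcra/Tcrd. For Tcrb it was 0.154, just below the 0.1556 of that locus. The remaining 4 loci had means between 0.047 and 0.097. Igh, at 0.097, was slightly above the 95th percentile of its windows, 0.090. Igk, Igl and Tcrg were below theirs, at 0.083, 0.21 and 0.22.

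**Figure D1:**
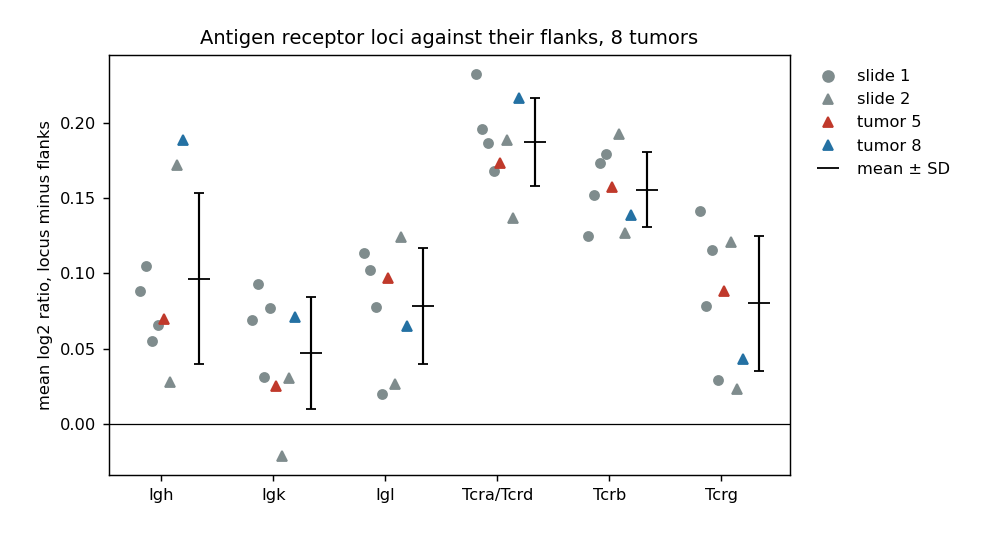
Mean log2 ratio of each locus minus that of its flanks, with 1 point per tumor (circles, slide 1; triangles, slide 2; tumors 5 and 8 coloured) and the mean ± SD of 8 tumors beside them. Tcra/Tcrd lies between 0.14 and 0.23 and Tcrb between 0.13 and 0.19, while Igk in tumor 6 is the only value below 0.

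Among the antibody loci, Igh differed from its flanks by 0.028 in tumor 6, the lowest, with a median of 0.079 and 0.19 in tumor 8 as the highest. All 8 tumors were above 0, with a mean of 0.097 ± 0.057 (SD, n = 8; limma adjusted p = 0.000693 over all windows of this length). Of 861 windows of the same length elsewhere on the autosomes and X, 29% were also called higher, and 20.1% were above their flanks in all 8 tumors, so the call by itself does not set Igh apart. Igk, the kappa light chain locus, ranged from -0.021 in tumor 6 to 0.093 in tumor 2, with a median of 0.050. It was above 0 in 7 of 8 tumors, with a mean of 0.047 ± 0.037 (SD, n = 8; limma adjusted p = 0.00724), and 28.8% of windows of its length were called higher. That call was lost against the lower-coordinate flank alone, with a mean of 0.021 (limma adjusted p = 0.0907). It was also lost with the probes well above background on all arrays, with a mean of 0.013 (limma adjusted p = 0.305). Igl, the small lambda light chain locus, ranged from 0.020 in tumor 4 to 0.12 in tumor 7, with a median of 0.087. Its mean was 0.078 ± 0.039 (SD, n = 8; limma adjusted p = 0.000672), beside 35.2% of windows called higher and 25.1% above their flanks in all 8 tumors, as Igl was.

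Among the T cell receptor loci, Tcra/Tcrd ranged from 0.14 in tumor 7 to 0.23 in tumor 1, with a median of 0.19 and a limma adjusted p of 2.88e-07. Windows of this length were called higher in 31.2% of cases. Tcrb, the beta chain locus, ranged from 0.13 in tumor 1 to 0.19 in tumor 6, with a median of 0.15 and a limma adjusted p of 3.78e-07, beside 33.5% of windows. Tcrg, the gamma chain locus, ranged from 0.023 in tumor 7 to 0.14 in tumor 1, with a mean of 0.080 ± 0.045 (SD, n = 8; limma adjusted p = 0.00107), beside 35.3% of windows. All tumors were above 0 at each of the 3 T cell receptor loci, as in 22.2%, 23% and 24.1% of windows of the lengths of Tcra/Tcrd, Tcrb and Tcrg.

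A stricter test asked for a mean difference beyond 0.1. Tcra/Tcrd passed it (limma treat adjusted p = 0.000317), as did 1.36% of windows of its length, and so did Tcrb (limma treat adjusted p = 0.00342), as did 5.2% of windows. The other 4 loci had a limma treat adjusted p of 1, where 0.813% of windows of the length of Igh, 0.398% for Igk, 11.2% for Igl and 12% for Tcrg passed. The two-sided exact sign-flip permutation test of the 8 tumor values gave p = 0.0156 for Igk and 0.00781, the smallest 8 values can give, for each other locus. The mean of Tcra/Tcrd rested in part on 2 probes described below, without which it was 0.093 (limma adjusted p = 3.17e-05). The stricter call then ended (limma treat adjusted p = 1), as it did with the median over probes (0.098) and with probes well above background (0.062). For Tcrb the median over probes gave 0.14, which also ended the stricter call (limma treat adjusted p = 0.207), while probes well above background gave 0.16 and kept it (limma treat adjusted p = 0.00208). Against the higher-coordinate flank alone Igh stood at 0.036 (limma adjusted p = 0.017), as its lower flank was below its higher flank by 0.030 to 0.18 in all 8 tumors.

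The reference channel was dimmer inside every locus than in its flanks on all 8 arrays, by a mean of 0.17 in Igh to 0.38 in Tcrg on the log2 scale. The mean tumor signal was lower by 0.077 in Igh to 0.30 in Tcrg at 5 loci. At Tcra/Tcrd it stood at -0.0075 ± 0.028 (SD, n = 8), with 3 tumors above 0. Probe density ranged from 43.9 per Mb in Igk to 81.1 per Mb in Tcrb, and the longest stretch without a probe was 373 kb, in Tcra/Tcrd. The part that dim signal, dye or probe choice had in the small positive means was not tested.

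Slides 1 and 2 gave similar means. The difference between slide means was 0.041 at most, in Igk, and the two-sided exact permutation test over 70 splits gave p of 0.114 to 1, where 0.0286 is the smallest possible. Within slide 1 the means ran from 0.067 in Igk to 0.20 in Tcra/Tcrd, and within slide 2 from 0.026 to 0.18 at the same loci.

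The second question was where along each locus the ratio departed from the flanks. In bins of 100 kb, 36 of 76 bins were called higher and 19 lower (limma, adjusted p under 0.05 over all bins). Elsewhere 36.3% of bins were called higher and 39.1% lower, so steps of this kind were frequent along the whole genome. The bins of the loci had a median of 0.065, against -0.0078 for the other bins, and a spread of bin means close to theirs (SD 0.25 against 0.24).

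In Igh the lowest bin was the first, at the end where RefSeq places the constant genes, with -0.36 ± 0.093 (SD, n = 8) and all 8 tumors between -0.46 and -0.20. The highest began 500 kb into the locus and had 0.58 ± 0.11 (SD, n = 8), with tumors between 0.45 and 0.75. In Igk, a bin 2500 kb from the start had the highest mean of 0.43 ± 0.14 (SD, n = 8). A bin 3100 kb from the start, toward the end where Igkc lies, had the lowest at -0.32 ± 0.11 (SD, n = 8). Tumors did not overlap between these 2 bins, which lie within 1 Mb of each other. Both were picked by these same values as the ends of the list, and no share of such pairs elsewhere was counted.

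Tcra/Tcrd varied most along its length, with an SD of bin means of 0.39. Its lowest bin, 400 kb from the start, had -0.72 ± 0.13 (SD, n = 8), and its highest, 1300 kb from the start, had 0.77 ± 0.16 (SD, n = 8). That bin of 5 probes holds 1 of the 2 probes dim in the reference, without which it was called lower, at -0.28 ± 0.099 (SD, n = 8). The highest bin was then the one 200 kb from the start, at 0.59 ± 0.31 (SD, n = 8), and the SD of bin means was 0.35. All 13 bins of Tcra/Tcrd with at least 3 probes were called, 7 higher and 6 lower, or 6 and 7 without the 2 probes (limma adjusted p under 0.05). After the bin that began at 400 kb, the next with enough probes began at 1200 kb, so the stretch between them has no bin. Tcrb had its highest bin 600 kb from the start, at 0.50 ± 0.15 (SD, n = 8), and 6 of its 9 bins were called higher and 1 lower, at -0.12 ± 0.13 (SD, n = 8). In Igl the first bin was highest, at 0.26 ± 0.086 (SD, n = 8), and of its other 3 bins 1 was called lower, at -0.094 ± 0.098 (SD, n = 8). Tcrg had 3 bins, 2 of them called higher, with 0.11 ± 0.068 (SD, n = 8) as the highest mean, and its lowest had -0.018 ± 0.056 (SD, n = 8) and was not called.

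**Figure D2:**
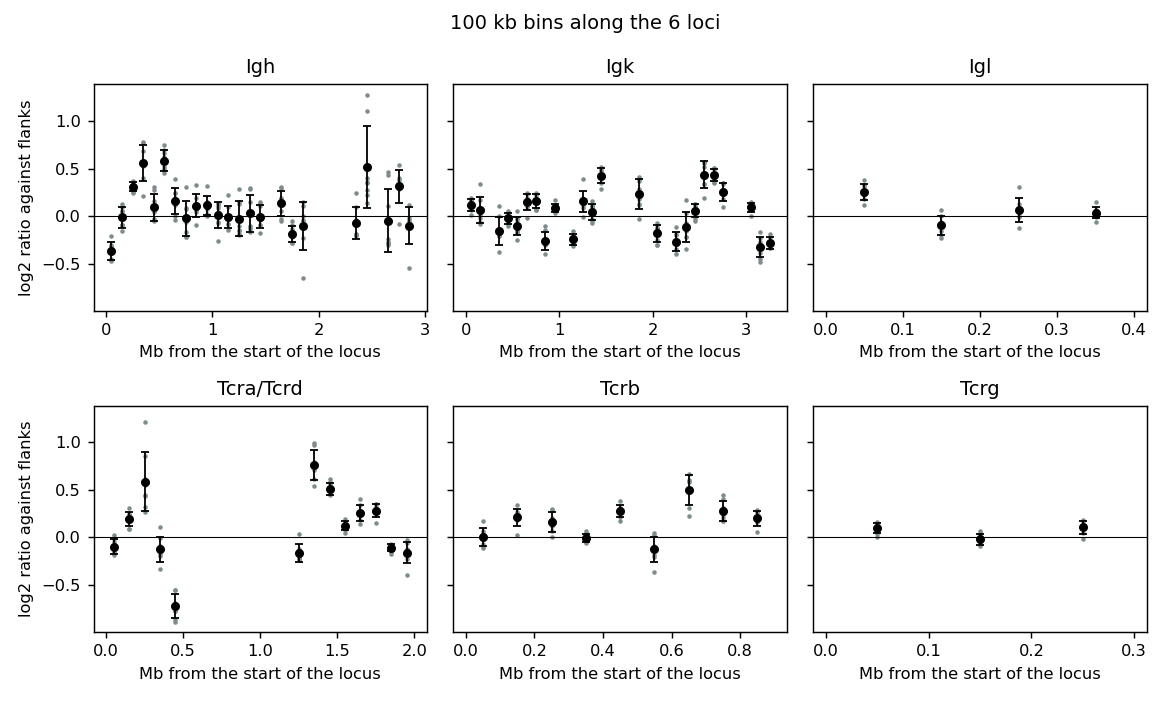
Log2 ratio of 100 kb bins with at least 3 probes against the flanks of their locus, by distance from the start of the locus. Grey points are the 8 tumors and black points with bars the mean ± SD. Tcra/Tcrd spans -0.72 to 0.77, where the highest bin falls to -0.28 without a probe dim in the reference. The widest bars at Igh, with an SD of 0.43 and 0.33, lie beyond 2 Mb from the start.

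Single probes could keep their sign in all 8 tumors, though the shared pattern was weaker in tumors 7 and 8 (slopes 0.57 and 0.60). Of the 551 probes, 43 (7.80%) had a mean at least 1 above the flanks and were higher in all 8 tumors, against 6.27% of other probes. Another 5 (0.907%) had a mean at least 1 below and were lower in all 8, against 0.612% of other probes. All 5 lay in Tcra/Tcrd, where they made up 4.81% of the probes, and another 15 (14.4%) were among the 43 higher ones. The lowest, at chr14:54220927, had a mean of -1.69 ± 0.16 (SD, n = 8), with -1.91 in tumor 5 and -1.40 in tumor 8 as the extremes. Another, at chr14:53344319, lay at -1.54 to -1.14. Igl and Tcrg had no probe past either limit.

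Tcra/Tcrd also held 2 probes at which the reference pool gave hardly any signal. At chr14:53759070-53759129 the tumor channel had a log2 signal of 9.65 to 10.2 over the 8 arrays, well above background on all of them. The reference channel had 4.14 to 5.56 and was not well above background on any. At chr14:54278607-54278666 the tumor channel had 8.83 to 9.82 and the reference 3.47 to 5.50. The channels did not overlap at either probe. Set against the dimmest reference signals that passed as well above background, the tumor DNA gave at least 9.99-fold more signal at the former and at least 6.42-fold more at the latter. Among 169632 probes outside the loci, 13 (0.00766%) showed this state. The reverse state, with the tumor dim on all arrays and the pool bright, occurred at 0 of the 551 probes and at 32 (0.0189%) of the others.

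The third question was whether single tumors stood apart from the others at a locus. By the mean of the locus with the shared pattern removed, none of the 48 tumor and locus pairs reached 0.2 in size. Of pairs of a tumor and a same-length window elsewhere, 0.174% did so for Igh, 0.166% for Igk, 0.723% for Igl, 0.14% for Tcra/Tcrd, 0.312% for Tcrb and 0.763% for Tcrg. The largest value was 0.14, at Igh in tumor 8, and 0.13 was found at Igh in tumor 7. Single probes were then counted, since a mean cancels probes that go up against probes that go down.

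At Igh, 51 of 179 probes (28.5%) in tumor 5 departed by at least 0.5 from the pattern shared by the arrays, 21 of them higher and 30 lower. In tumor 8, 30 probes (16.8%) departed, 26 higher and 4 lower. In the flanks of Igh the shares were 0.867% in tumor 5 and 4.05% in tumor 8, and outside all loci 0.434% and 3.14%. Outside the loci tumors 1, 2, 3, 4, 6 and 7 had 2.94%, 1.21%, 0.592%, 2.01%, 0.848% and 4.4%, and at Igh they had 2.23%, 1.12%, 1.12%, 1.68%, 2.23% and 3.91%. None of the 861 windows of this length elsewhere had at least 10% of its probes departing in tumor 5 (0%), 3 had so in tumor 8 (0.348%), and none in both (0%). The largest window share was 9.88% in tumor 5 and 12.5% in tumor 8. This measure was chosen after the values had been seen, and it has no test, as each tumor is 1 array.

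**Figure D3:**
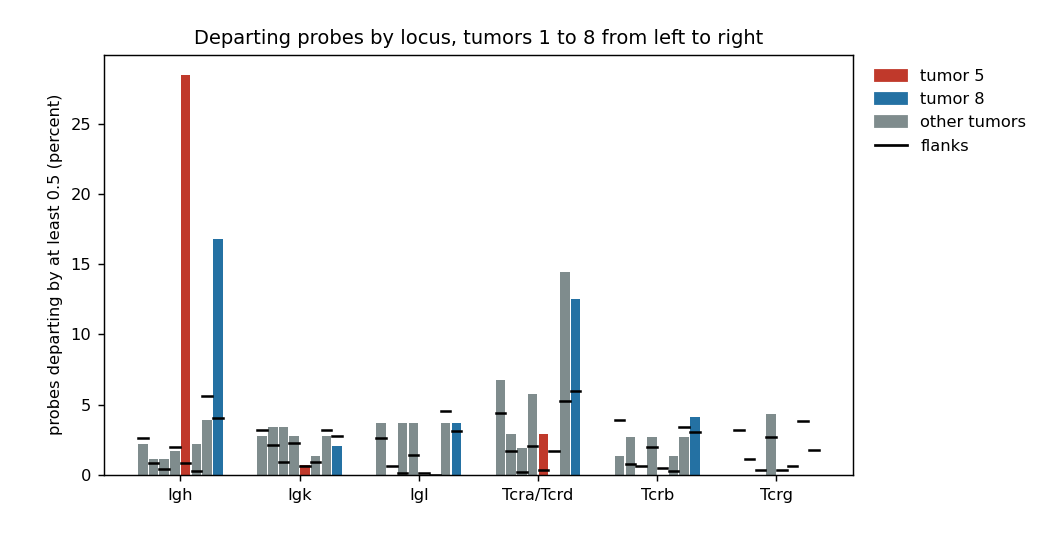
Percent of the probes of each locus that depart by at least 0.5 on the log2 scale with the shared pattern removed, for tumors 1 to 8 from left to right within each locus. Black lines give the same percent in the flanks. Igh stands at 28.5% in tumor 5 and 16.8% in tumor 8, and the bars of Tcra/Tcrd in tumors 7 and 8 at 14.4% and 12.5%.

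The departing probes of the 2 tumors overlapped in part, mostly on the higher side. At 21 probes tumors 5 and 8 departed the same way, which is 41.2% of those of tumor 5 and 70% of those of tumor 8, and at 0 probes they departed opposite ways. As a share of all Igh probes this is 11.7%, against 0.0271% of probes outside the loci. None of the other 27 pairs of tumors had more than 2 such probes. Tumor 8 had the sign of tumor 5 at 46 of the 51 probes, at all 21 of the higher ones and at 25 of the 30 lower ones.

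Over the 179 probes of Igh, the departures of tumors 5 and 8 had a Pearson correlation of 0.78, against -0.096 over 691 probes of the flanks. The other 27 pairs of tumors ran from -0.42 to 0.29 over the probes of Igh. At Tcra/Tcrd tumors 7 and 8 had a correlation of 0.84 over 104 probes, with 7 departing the same way, and 0.69 without the 2 probes dim in the reference, against 0.53 in the flanks. The points share the subtracted pattern, which is taken from all 8 arrays and ties them together. With the pattern taken from the other 6 arrays alone, 33.0% of the probes departed in tumor 5 and 18.4% in tumor 8.

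**Figure D4:**
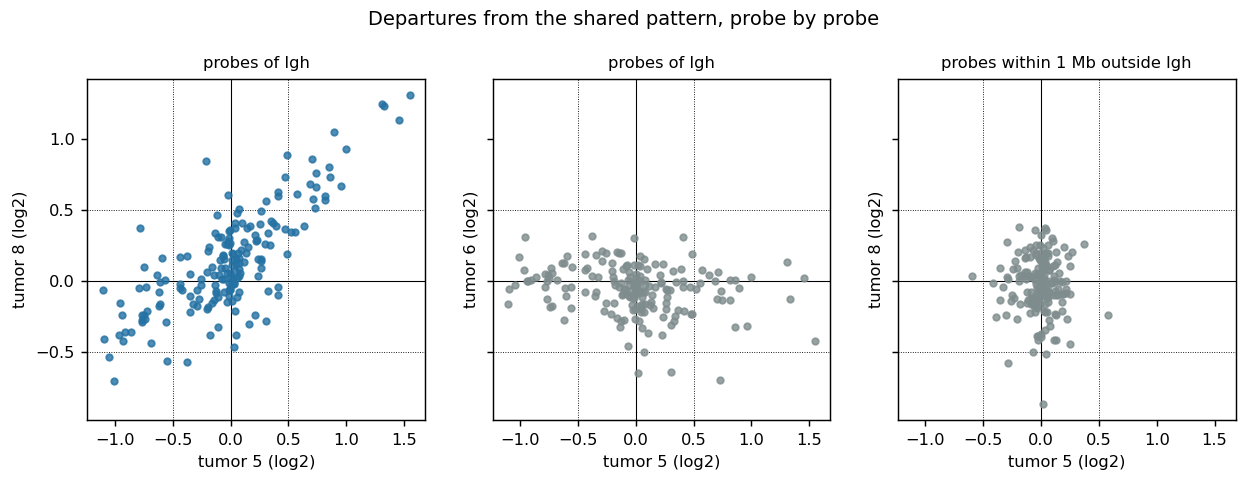
Departures from the shared pattern (log2), with 1 point per probe. The left panel sets tumor 8 against tumor 5 over the probes of Igh, the middle panel tumor 6 against tumor 5 over the same probes, and the right panel tumor 8 against tumor 5 over probes within 1 Mb outside Igh. Dotted lines mark 0.5. The points lie along a rising line in the left panel alone.

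The sizes and counts of tumor 5 follow from its choice of probes and are given as a description. Values of the other tumors were not used in that choice, but the subtracted pattern, a median over all 8 arrays, ties them to it. At its 21 higher probes the median departure was 0.82 in tumor 5 and 0.69 in tumor 8, and the medians of the other 6 tumors lay between -0.12 and 0.18. At its 30 lower probes the median was -0.76 in tumor 5 and -0.24 in tumor 8, with the others between 0.0035 and 0.12. Tumor 5 lay above all 6 other tumors at 20 of the 21 and below all of them at 29 of the 30. Tumor 8 did so at 19 and 18 of them, and no share of other probes at which it did so was taken.

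The tumor channel carried the difference. At the 21 higher probes the tumor signal had a median of 0.95 above the flanks in tumor 5 and 0.70 in tumor 8, and from -0.16 to 0.21 in the other tumors. The reference signal of the same probes, which comes from the same pool on every array, lay at -0.40 to -0.069 over the 8 arrays, with tumor 5 at -0.30 and tumor 8 at -0.19. At the 30 lower probes the tumor signal was at -0.76 in tumor 5, -0.19 in tumor 8 and -0.10 to 0.13 in the others, with the reference at 0.044 to 0.13.

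Single probes show the size. The first 5 given here, picked after their values were seen, are the 4 higher probes and the lower probe with the largest joint departure in tumors 5 and 8. The probe at chr12:116885475-116885534 had a log2 ratio against the flanks of 2.56 in tumor 5 and 1.89 in tumor 8, with the other tumors at 0.44 to 1.26. At chr12:116304669-116304721 the values were 1.88 and 1.58, with the others at 0.33 to 0.71. At chr12:116852363-116852422 the values were 2.06 and 1.65, with the others at 0.37 to 0.78. The probe at chr12:117047345-117047397 was at 1.03 and 0.89, while the others ran from -0.73 to 0.084. On the lower side, chr12:116271371-116271430 had -0.96 in tumor 5 and -0.68 in tumor 8, with the others at -0.015 to 0.22. Tumors 5 and 8 did not overlap with the rest at these 5 probes, which follows in part from how they were picked. A further lower probe that departed in both tumors, at chr12:116624894-116624944, did overlap. There tumor 5 stood at 0.82 and tumor 8 at 0.22, with the others at 0.717 to 1.625.

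Departing probes ran along nearly the whole locus and were rare beyond its edges. The first and the last in tumor 5 began at positions 114506215 and 117274742, and none of the 45 probes within 500 kb below the locus or of the 46 within 500 kb above it departed there. In tumor 8, 2 probes below and 0 above did so. Farther above the locus, within 1 Mb, tumor 5 departed by -0.60 at 3438 kb and 0.58 at 3488 kb from the locus start. Tumor 8 departed there by -0.58 at 3578 kb. In steps of 500 kb from the start of the locus, the share of tumor 5 was 9.09% in the first, at the end where RefSeq's order starts with a constant gene. It was then 35.9%, 21.7%, 39.1% and 63.6%, and 43.8% in the last 400 kb, at the end where the order closes with a variable segment. The order does not show which segments lie in a step. In tumor 8 the shares were 9.09%, 15.4%, 6.52%, 26.1%, 54.5% and 31.2%. The first step had the lowest share in tumor 5 and the third had the lowest in tumor 8, while the fifth, with 11 probes, had the highest in both.

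**Figure D5:**
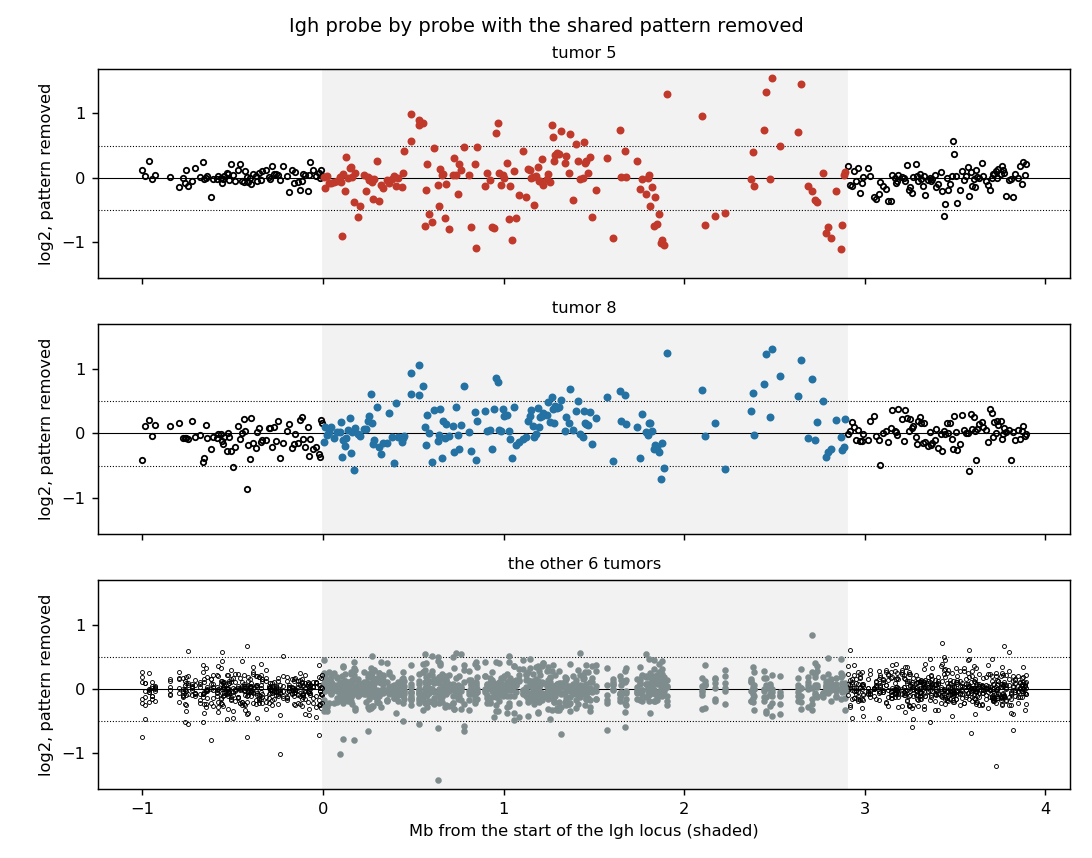
Log2 ratios of probes in and within 1 Mb of Igh with the shared pattern removed, by distance from the start of the locus, which is shaded. Filled points are probes of the locus, open points flank probes, and dotted lines mark 0.5. Tumors 5 and 8 scatter from below -0.5 to above 1 inside the locus, with high probes at the same places, and fall back to the flank level at both edges.

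The flanks of Igh stood at different levels in the 2 tumors, with a mean log2 ratio of -0.058 in tumor 5 and -0.42 in tumor 8. Those of the other tumors ran from -0.54 in tumor 1 to 0.12 in tumor 3. Tumors 1, 4 and 6, with flanks at -0.54, -0.34 and -0.29, had 2.23%, 1.68% and 2.23% of Igh probes departing. Tumors 6 and 7, which shared slide 2 with tumors 5 and 8, had 2.23% and 3.91%. Neither the lymphocyte content of the tumors nor the strain background of the mice was measured. The part of either, of the flank level or of the slide in the departing probes of Igh was not tested.

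At the other antibody loci and at Tcrb and Tcrg few probes departed. In Igk the share was 0.690% to 3.45% over the 8 tumors, in Igl 0% to 3.70%, in Tcrb 0% to 4.11% and in Tcrg 0% to 4.35%. Tumor 5 had 0.690% in Igk, and 0% in Igl, Tcrb and Tcrg. Tcra/Tcrd had 0% to 6.73% in tumors 1 to 6, 14.4% in tumor 7 and 12.5% in tumor 8, shares that 0.480% and 0% of windows of its length reached. Without the 2 probes dim in the reference they were 12.7% and 10.8%. Without scaling the pattern to the array both stood at 9.62%, against 14.7% and 9.90% in their flanks. At Igh the unscaled shares were 30.2% in tumor 5 and 16.2% in tumor 8, with 0.578% and 10.6% in the flanks.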

How the data were processed

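Per the submitters' processing notes the scans were read with Agilent Feature Extraction 10.7.3.1. Processed signals, as deposited, are intensity values after the authors' background subtraction and dye normalization, and the deposited log10 ratios are red over green, per the file headers. A deposited table of log10 ratios for all arrays differed from these by at most 0.00498. Per the file headers, quality marks (unit other) are 0 or 1 and positions are on mm9.

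Log2 ratios of the deposited processed intensity were computed here with numpy 2.4.6 and pandas 2.3.3 in Python 3.11.15. Control spots were left out, and outlier spots on their array (115 to 221). Locus minus flank means were tested with limma 3.58.1 (R 4.3.3, intercept alone) over all windows of the same length with at least 10 probes and 100 flank probes, with Benjamini-Hochberg adjustment, and with treat at 0.1. Bins of 100 kb needed 3 probes. The shared pattern is the median over arrays of each probe after chromosome medians are subtracted, scaled to each array by its slope. A bound on a fold compares group means of log2 signals, with the dim channel set, per array, to the higher of its own value and the lowest signal well above background, and is open to dye bias. The steps were tested on simulated data. Exact tests used every sign pattern (256) or split (70). Plots used matplotlib 3.10.9.

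The loci, lists and tests were chosen with earlier results of these data known. Named are all 6 loci, their highest and lowest bins, and, of the 3 highest and 3 lowest probes with the same sign in all tumors, some at Tcra/Tcrd. The alternative with normexp used median spot signals in place of the planned mean signals. Alternatives on flanks, probe summary, dim probes, slide, single tumors left out and the pattern are in the closing section. Each p-value measures the spread between mice against a single pool, and not the spread between the probes of a locus.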

Additional observations from a re-analysis of the deposited data

Results flagged for a closer look

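In 36 groups of 8 tumor values, the gap of the highest or lowest tumor to the next was set against the range of all 8, and chance alone flags about 1 in 20 such groups. Tcra/Tcrd in tumor 8 stood out with 0.10 above the flanks with the shared pattern removed, while the other 7 tumors ran from -0.031 to 0.031. Without the 2 probes dim in the reference it was 0.053, and the others ran from -0.030 to 0.047. Tcrg in tumor 4 stood out with 4.35% of its 23 probes departing by at least 0.5, which is 1 probe, while the other tumors had 0%.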

How the results depend on the processing

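No paired analysis was possible because the tumors form 1 group. Leaving out each tumor in turn kept all 6 loci higher than their flanks with an adjusted p under 0.05 (limma): Igh at 0.083 to 0.11, Igk at 0.040 to 0.057, Igl at 0.072 to 0.087, Tcra/Tcrd at 0.18 to 0.19, Tcrb at 0.15 to 0.16 and Tcrg at 0.071 to 0.088. The count of higher bins was then 36 to 38 and that of lower bins 17 to 20. With treat at 0.1 the calls of Igh (0.097), Igk (0.047), Igl (0.078) and Tcrg (0.080) ended, each with a limma treat adjusted p of 1. Treat at 0.1 combined with other probes, added after seeing the data, ended the call of Tcra/Tcrd with the median over probes (0.098), with probes well above background (0.062) and without the 2 dim probes (0.093), and that of Tcrb with the median (0.14). Igk alone also lost its call with the lower-coordinate flank (0.021) and with probes well above background (0.013), and no locus changed direction under any alternative. The deposited table gave 0.047 for Igk and 0.19 for Tcra/Tcrd. Beside those in the report, values moved by over 1.5 times for Igk with the higher-coordinate flank (0.077), for Tcra/Tcrd with probes well above background, for Igl with normexp (0.12) and flanks of 10 Mb (0.048), for Igh with the median over probes (0.058) and probes well above background (0.057), and for Tcrg with the lower-coordinate flank (0.047). With treat, 22 of 76 bins were higher and 9 lower (28.9% and 11.8%, against 21.9% and 22.9% elsewhere). With bins of 50 kb, 49 of 107 were higher and 30 lower (28% lower, against 40.3% elsewhere), and with 200 kb 28 of 47 and 10 (21.3%, against 37.8%). At a limit of 0.1, 3 tumor and locus pairs departed.

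The departing probes of Igh, whose alternatives were all chosen after seeing the data like the one without the 2 dim Tcra/Tcrd probes, were 43.0% in tumor 5 and 36.9% in tumor 8 at a limit of 0.3, with the other tumors at 6.15% to 23.5%. At a limit of 0.8 they were 11.7% and 5.59%, with the others at 0% to 0.559%. Without scaling of the pattern they were 30.2% and 16.2%, and tumor 7 had 11.2%. With normexp they were 27.4% and 15.1%, and with probes well above background 29.4% and 15.3%. Slide differences with the pattern removed turned sign at Igl (-0.020), Tcra/Tcrd (-0.027), Tcrb (-0.037) and Tcrg (-0.0016), with exact permutation p of 0.0857 to 0.971. The cause of these changes was not tested. Dim signal limits what the 29 probes not well above background in both channels on all arrays can show, and each tumor is 1 array.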
